A study of Mus musculus with 6 samples.

Results

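The ON-bipolar mGluR6 signalling cascade is described here through 9 genes chosen by symbol, Grm6, Gnao1, Trpm1, Nyx, Gpr179, Rgs7, Rgs11, Lrit3 and Pcp2, out of 24346 gene symbols in each of 6 RNA-seq tables. The libraries were made from mouse retinas at postnatal day 12. In 3 triple-deficient libraries the genotype was Panky-/-;Panky-like-/-;Nrl-/-, and in 3 control libraries it was Panky+/-;Panky-like+/-;Nrl-/-, so that the controls too are labelled Nrl-/- and as carriers of 1 mutant copy of each of the other genes. Nrl is the transcription factor that sends photoreceptor precursors to the rod fate, and retinas without it hold cone-like photoreceptors in place of rods. The bipolar cells of both groups therefore face an outer retina without normal rods, and no library with intact Nrl was analysed here. Panky is Ankrd33, a co-repressor of photoreceptors, and Panky-like is taken to be its paralog Ankrd33b, which the labels do not spell out. Values are FPKM (fragments per kilobase of transcript, scaled by the size of the library) as deposited, and the mice were littermate pairs, 3 in number per the series' design text, without a statement of which libraries make up a pair or how many mice went into a library.

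ON-bipolar cells are the retinal interneurons that depolarise when light falls on the photoreceptors they contact. In darkness, photoreceptor glutamate activates the metabotropic receptor mGluR6 on the bipolar dendrite, whose G protein Go keeps the cation channel TRPM1 closed, and at light onset glutamate falls, Go is switched off and the channel opens. RGS7 and RGS11 speed the switching off of Go, GPR179 anchors them at the dendritic tip, and the leucine-rich repeat proteins nyctalopin (Nyx) and LRIT3 are needed to hold the channel at the synapse. Loss of Grm6, Trpm1, Nyx, Gpr179 or Lrit3 causes complete congenital stationary night blindness in humans.

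All 9 genes were measured in every library, and 8 of them have at least 1 window in the RefSeq promoter table for GRCm38.p6, the mm10 build that the submitters' processing notes name. A window holds 300 bases, 250 before and 50 after an annotated start. Windows of the receptor, of one leucine-rich repeat gene and of both annotated starts of the channel are shown because these genes carry the comparison of transcription levels below and because each window holds the letters GATTA, the core read by homeodomain factors of the Otx2 and Crx kind. The windows were picked after these matches were seen. Capitals mark GATTA, or TAATC where it lies on the other strand, and CACGTG, the E-box that the pigment cell factor Mitf can bind.
Grm6, chr11:50850435-50850734, plus strand: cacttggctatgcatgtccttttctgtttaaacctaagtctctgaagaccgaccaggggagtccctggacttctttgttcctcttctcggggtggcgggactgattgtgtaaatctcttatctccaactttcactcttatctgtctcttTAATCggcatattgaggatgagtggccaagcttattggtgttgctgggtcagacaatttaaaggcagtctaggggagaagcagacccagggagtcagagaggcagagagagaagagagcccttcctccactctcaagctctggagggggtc
Lrit3, chr3:129804087-129804386, minus strand: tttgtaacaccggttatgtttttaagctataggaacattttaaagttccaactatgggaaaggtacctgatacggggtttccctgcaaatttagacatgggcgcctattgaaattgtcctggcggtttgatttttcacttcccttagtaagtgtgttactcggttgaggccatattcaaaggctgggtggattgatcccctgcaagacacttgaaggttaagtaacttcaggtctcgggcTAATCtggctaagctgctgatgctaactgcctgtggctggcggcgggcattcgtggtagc
Trpm1, upstream start, chr7:64153585-64153884, plus strand: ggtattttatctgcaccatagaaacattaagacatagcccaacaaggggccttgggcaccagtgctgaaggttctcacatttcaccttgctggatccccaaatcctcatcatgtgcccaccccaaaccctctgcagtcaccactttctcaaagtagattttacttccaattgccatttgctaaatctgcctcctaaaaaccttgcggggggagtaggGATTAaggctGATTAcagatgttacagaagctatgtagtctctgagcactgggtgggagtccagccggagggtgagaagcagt
Trpm1, downstream start, chr7:64185209-64185508, plus strand: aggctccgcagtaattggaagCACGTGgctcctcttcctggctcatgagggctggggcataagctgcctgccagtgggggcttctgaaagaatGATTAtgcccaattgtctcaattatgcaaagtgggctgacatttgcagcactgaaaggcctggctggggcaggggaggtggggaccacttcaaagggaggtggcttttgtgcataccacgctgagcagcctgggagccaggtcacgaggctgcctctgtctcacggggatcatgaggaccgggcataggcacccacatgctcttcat

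On either strand, GATTA was present in 5 of 12 windows of the cascade genes and in 22.0% of the 32817 windows of the table. The longer form TAATCC, which on its other strand ends in GATTA and so overlaps the shorter motif, was present in 1 of the 12 windows, that of the upstream Trpm1 start, and in 7.06% of all windows. CACGTG, which reads the same on both strands, was present in the window of the downstream Trpm1 start and in that of Rgs7, and in 7.15% of all windows. TAATTA, another homeodomain core, was present in 1 window, of Pcp2, and in 5.30% of all windows. Neighbouring windows of the 4 for Pcp2 share bases. A match describes letters only, and with 1 FPKM value per gene the starts of Trpm1 cannot be read separately.

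The libraries resembled one another closely, with Spearman correlations between 0.983 and 0.987 over all genes. Steps of the lowest values put the depth, relative to control 1, at 1.21, 0.939 and 0.806 in triple-deficient libraries 1, 2 and 3, against 1.10 and 1.02 in control libraries 2 and 3. Of the targeted genes, Ankrd33b was at 1.80, 1.31 and 1.39 FPKM in triple-deficient libraries, against 35.4, 32.6 and 33.4 FPKM in controls, and Ankrd33 averaged 55.6 ± 4.66 FPKM in triple-deficient and 106 ± 2.97 FPKM in control libraries (SD, n = 3 each). Nrl, labelled -/- throughout, was not absent at the transcript level: it was at 52.6, 51.3 and 53.7 FPKM in triple-deficient libraries, against 49.2, 38.3 and 45.0 FPKM in controls, groups that did not overlap (log2 change 0.25, limma adjusted p = 0.861). Which part of Nrl the allele removes is not given in the sources used here, so this value for the whole gene does not check the label. The rod transducin Gnat1 was at 0.269 to 0.367 FPKM in triple-deficient and 0.345 to 0.514 FPKM in control libraries, while the cone opsin Opn1sw was at 1406 FPKM or more in every library. Deviations of triple-deficient 3 followed the GC content of transcripts, with a Spearman correlation of -0.59 across genes, which are not independent, against 0.07 to 0.30 in the other libraries, and that library was the lowest of the 6 for Grm6, Gnao1 and Rgs11. Of 6 lens markers 3 were tested and 0 rose or fell (median log2 change -0.17), and their summed level was 2.73, 2.31 and 2.72 FPKM in triple-deficient libraries, against 8.42, 2.70 and 2.84 FPKM in controls. The part of GC content or lens tissue in the values below was not tested beyond the alternatives given at the end.

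Grm6 encodes mGluR6, the receptor that starts the cascade, at chr11:50850369-50866208 on the plus strand of GRCm38.p6, the build of all positions here. Its level was 74.6, 75.6 and 62.8 FPKM in triple-deficient libraries 1, 2 and 3, against 68.3, 70.1 and 73.5 FPKM in control libraries 1, 2 and 3. The triple-deficient group holds both the highest values and the lowest one, so the groups overlap fully. The mean was 71.0 ± 7.16 FPKM in triple-deficient and 70.6 ± 2.65 FPKM in control retinas (SD, n = 3 each). The log2 change, taken here and below on FPKM + 1 as triple-deficient minus control, was 0.0038, with a 95% interval from -0.17 to 0.17 (limma adjusted p = 0.998).

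Gnao1 encodes the alpha subunit of Go, which many other retinal neurons also make, and lies at chr8:93810153-93969388, plus strand. Its level was 188, 186 and 173 FPKM in triple-deficient libraries, against 182, 186 and 190 FPKM in controls. Apart from triple-deficient 3, which was lowest, the libraries lay within a narrow band. The change was -0.029 on the log2 scale, with an interval from -0.14 to 0.086 (limma adjusted p = 0.966).

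Trpm1, the transduction channel of ON-bipolar dendrites, lies at chr7:64153835-64269772, plus strand. Its level was 109, 104 and 107 FPKM in triple-deficient libraries, against 97.9, 109 and 94.1 FPKM in controls. Controls 1 and 3 lay below all triple-deficient libraries, while control 2 reached the level of the highest of them. The mean was 107 ± 2.87 FPKM in triple-deficient and 100 ± 7.91 FPKM in control retinas (SD, n = 3 each), a log2 change of 0.091 with an interval from -0.050 to 0.23 (limma adjusted p = 0.946). The gene hosts Mir211, a microRNA listed at 0 in all tables, and libraries selected for mRNA do not measure mature microRNAs.

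Nyx encodes nyctalopin, which binds the channel at the dendritic surface, and is the X-linked gene of the 9 (chrX:13461090-13492820, plus strand). It stood at 5.72, 4.95 and 5.45 FPKM in triple-deficient libraries, against 5.33, 5.73 and 5.85 FPKM in controls, with an overlap of the groups. By estimate from depth and transcript length, 514 to 807 fragments lie behind each of these values. The log2 change was -0.060 with an interval from -0.22 to 0.10. Sex, read from Xist and Ddx3y, was not balanced between the groups. Triple-deficient libraries 1, 2 and 3 read as male, female and male, and controls 1, 2 and 3 as female, female and male. With sex as a covariate the log2 change of Nyx was -0.096, again without a call.

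Lrit3, the leucine-rich repeat protein without which nyctalopin and the channel fail to gather at the mouse ON-bipolar dendrite (chr3:129783941-129804136, minus strand), was at 110, 103 and 105 FPKM in triple-deficient libraries, against 104, 105 and 99.3 FPKM in controls. Triple-deficient 1 was highest and control 3 lowest, and the values between them were mixed. The log2 change was 0.042, with an interval from -0.067 to 0.15 (limma adjusted p = 0.959). Which cells of the bulk retina made this transcript was not tested.

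Gpr179, the orphan receptor that anchors the RGS proteins (chr11:97332109-97352356, minus strand), was the one cascade gene whose groups did not overlap. Its level was 35.4, 34.7 and 34.1 FPKM in triple-deficient libraries, against 30.4, 33.6 and 32.8 FPKM in controls. The lowest triple-deficient value thus stood just above the highest control value. The mean was 34.8 ± 0.644 FPKM in triple-deficient and 32.2 ± 1.66 FPKM in control retinas (SD, n = 3 each), a log2 change of 0.11 with an interval from -0.010 to 0.22 (limma adjusted p = 0.943). Over all genes tested, 4.86% had groups that did not overlap with the triple-deficient values higher, and 5.64% had them lower, so 1 gene higher and 0 lower among 9 is near that background.

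Rgs7 and Rgs11 encode the paired regulators that, bound to the product of Gnb5, accelerate the GTPase of Go, at chr1:175059076-175492862 on the minus strand and chr17:26202527-26211324 on the plus strand. Rgs7 was at 24.4, 24.1 and 24.4 FPKM in triple-deficient libraries, against 23.4, 26.6 and 23.4 FPKM in controls. Rgs11 was at 24.2, 24.1 and 20.5 FPKM in triple-deficient libraries, against 23.6, 27.2 and 22.1 FPKM in controls. For both genes control 2 was highest, and for Rgs11 triple-deficient 3 was lowest. Rgs11 had the widest interval of the 9, from -0.28 to 0.13 around a log2 change of -0.079, and Rgs7 one from -0.14 to 0.13 around -0.005. Rgs11 overlaps the gene Arhgdig on the opposite strand, which was at 16.5 FPKM in triple-deficient and 15.6 FPKM in control retinas, and whether strand was used in counting is not given in the sources used here.

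Pcp2, a small GoLoco-motif protein of Purkinje and ON-bipolar cells that binds the alpha subunit of Go (chr8:3623369-3625547, minus strand), was at 294, 309 and 259 FPKM in triple-deficient libraries, against 255, 265 and 269 FPKM in controls. Triple-deficient libraries 1 and 2 lay above all controls, and triple-deficient 3 lay between controls 1 and 2. The mean was 287 ± 25.7 FPKM in triple-deficient and 263 ± 7.08 FPKM in control retinas (SD, n = 3 each). Its log2 change of 0.12, with an interval from -0.036 to 0.28, did not pass (limma adjusted p = 0.946). Pcp2 overlaps Pet100 on the opposite strand, at 25.4 FPKM in triple-deficient and 25.5 FPKM in control retinas.

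**Figure D1:**
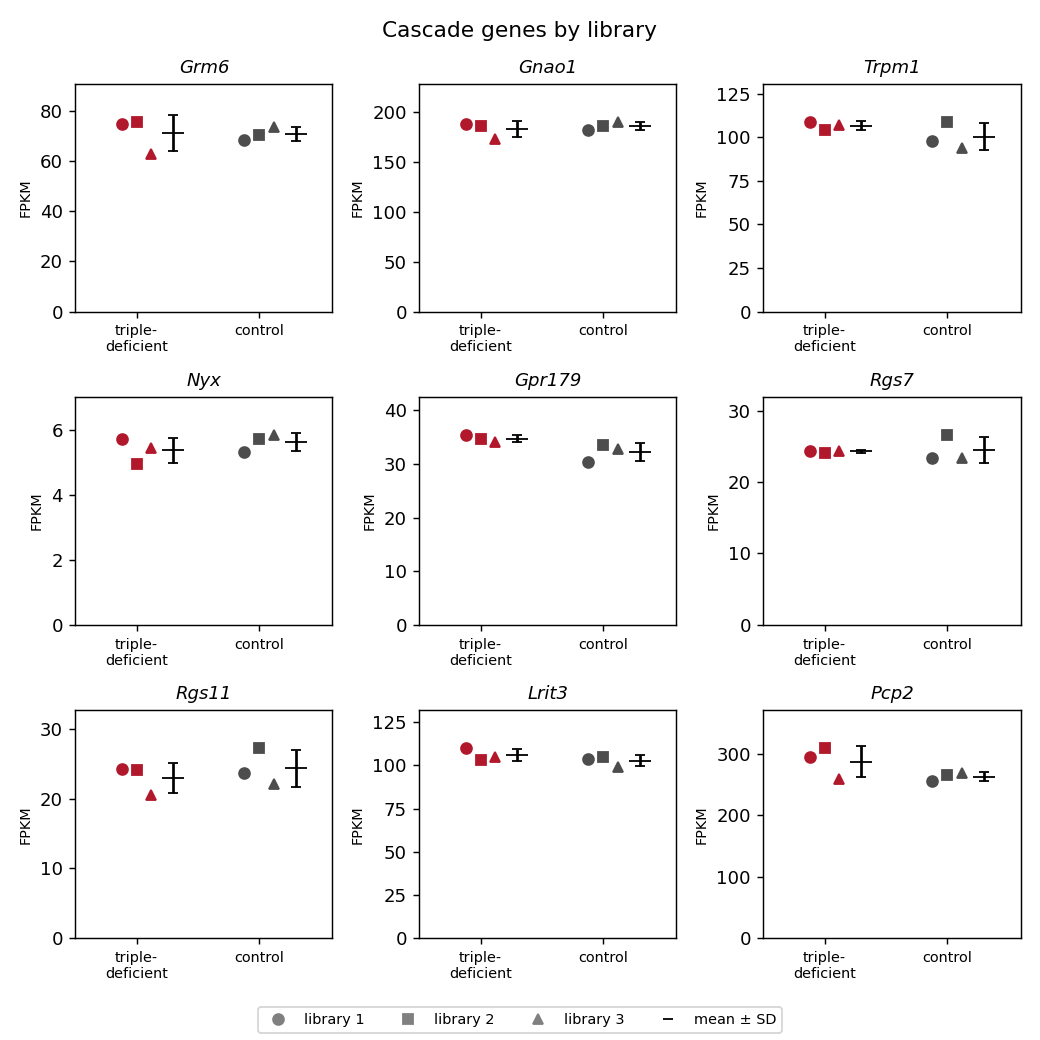
FPKM of each cascade gene by library (vertical axes start at 0), with triple-deficient libraries in red and controls in grey; symbols give the library number and the bar beside them the mean ± SD (n = 3). Gpr179 is the one gene whose groups do not overlap (34.1 to 35.4 against 30.4 to 33.6 FPKM), and triple-deficient 3 is the lowest library for Grm6, Gnao1 and Rgs11.

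Of the 9 cascade genes, 0 rose and 0 fell in limma's test over all genes, where 4 of 14325 genes, 0.0279%, passed at an adjusted p below 0.05. Of these 4, 1 rose and 3 fell. The targeted genes Ankrd33b and Ankrd33 were among those that fell (limma adjusted p = 4.56e-07 and 0.00274). At an unadjusted p below 0.05 there were also 0 of the 9 cascade genes, against 5.09% of all genes tested, although single cascade genes went below it under other settings. No other tool was run. The median log2 change of the cascade was 0.0038, beside 0.0034 over all genes tested, and 5 of the genes had a positive and 4 a negative value. The 95% intervals of all 9 allowed changes of FPKM + 1 smaller than 1.5-fold up or down, as did those of 96.8% of the genes tested. These intervals bound the change that the 6 libraries allow, and do not show that the levels are equal.

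**Figure D2:**
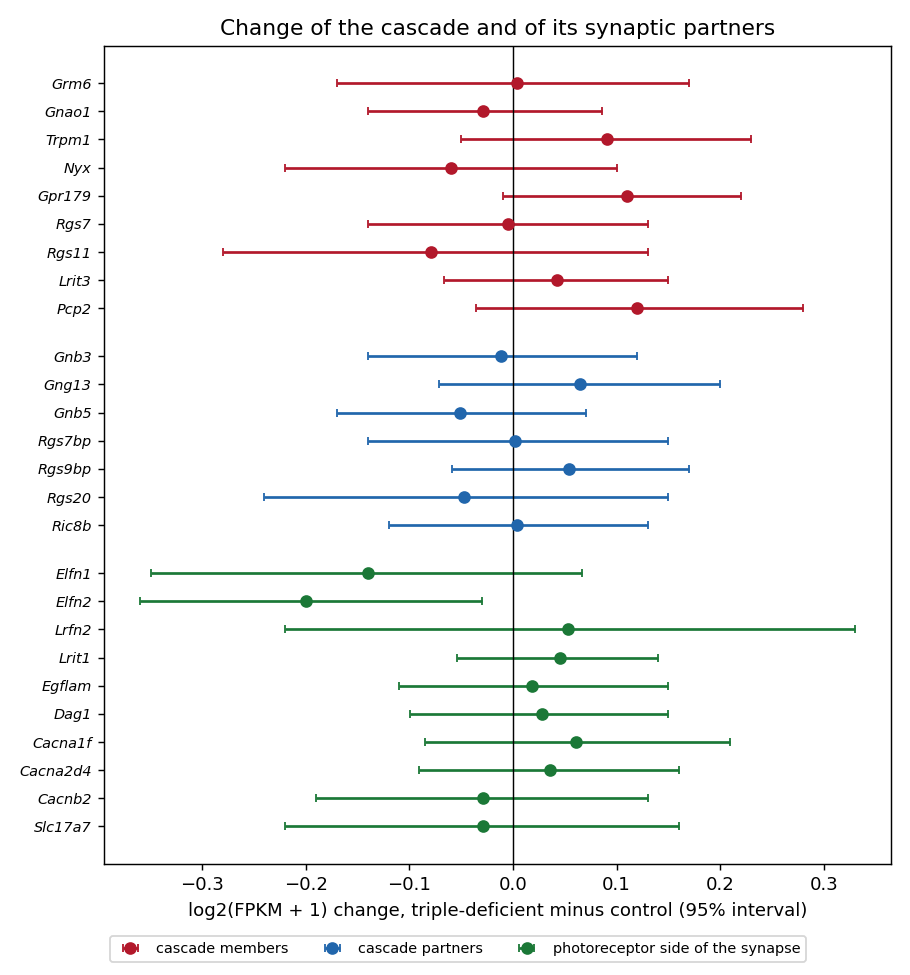
Log2 change of FPKM + 1 for each gene (triple-deficient minus control) with its 95% interval from limma, for the cascade (red), its partners (blue) and photoreceptor genes of the same synapse (green). All cascade intervals lie between -0.28 and 0.28 and include 0, and that of Elfn2 does not reach 0.

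Levels differed between the cascade genes far more than between the groups. Over the 6 libraries the order by mean FPKM was Pcp2 (275), Gnao1 (184), Lrit3 (105), Trpm1 (104), Grm6 (70.8), Gpr179 (33.5), Rgs7 (24.4), Rgs11 (23.6) and Nyx (5.50). Lrit3 and Trpm1 overlapped in range, each being the higher one in 3 libraries, and so did Rgs7 and Rgs11. The ranges of all other neighbours in this order did not overlap. Pcp2 ranked 167th and Gnao1 298th among the 14325 genes tested, and Nyx stood at rank 9932, so one protein of the dendritic complex had a transcript level well below the receptor and the channel.

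The part that each gene took of the summed FPKM of the 9 varied from library to library. The sum was 866, 866 and 791 FPKM in triple-deficient libraries, against 790, 829 and 810 FPKM in controls. Pcp2 made up 33.9%, 35.7% and 32.7% of it in triple-deficient libraries, against 32.3%, 31.9% and 33.2% in controls. Grm6 made up 7.93% to 9.07%, Rgs11 2.59% to 3.28% and Nyx 0.572% to 0.722% over all 6 libraries.

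Ratios within a library do not depend on how libraries are scaled, but they were not compared with the GC trend removed. GC content of the longest transcript was 36.7% for Rgs7 and 56.2% for Rgs11. Triple-deficient 3, whose deviations followed GC content, held the highest Rgs7 to Rgs11 ratio. Rgs7 to Rgs11 was 1.01, 0.999 and 1.19 in triple-deficient libraries, against 0.990, 0.977 and 1.06 in controls, so both transcripts were present in about equal amounts per length. Gnao1 to Grm6 was 2.58 ± 0.153 in triple-deficient and 2.64 ± 0.0451 in control retinas, and Trpm1 to Grm6 was 1.52 ± 0.174 and 1.42 ± 0.140 (SD, n = 3 each). Gpr179 to Grm6 was 0.492 ± 0.0451 in triple-deficient and 0.457 ± 0.0193 in control retinas, and Nyx to Lrit3 was 0.0506 ± 0.00212 and 0.0548 ± 0.00393 (SD, n = 3 each). For these 5 ratios the two-sided exact permutation p ran from 0.3 to 0.6 (adjusted p = 0.6 for each), where 3 against 3 libraries cannot go below 0.1. In bulk retina each ratio is taken over all cell types, and proportions within ON-bipolar cells were not measured.

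Within each family, only the relatives listed here were compared in level. Among the group III metabotropic glutamate receptors, Grm6 stood over 6 libraries at 62.8 to 75.6 FPKM, and Grm4, Grm7 and Grm8, the presynaptic receptors, at 4.52 to 7.75 FPKM. Trpm1 was above Trpm3, another retinal channel of the family, which was at 47.9, 46.8 and 53.7 FPKM in triple-deficient libraries, against 45.6, 46.9 and 41.0 FPKM in controls. Trpm5 and Trpm6 were below the filter of 0.5 FPKM. Gnao1 exceeded Gnai2 (76.2 to 84.9 FPKM), the most abundant of the inhibitory relatives listed, Gnai1, Gnai2, Gnai3 and Gnaz. The list held no transducin, so the highest alpha subunit of this tissue cannot be read from it. Rgs9, the photoreceptor member of the same RGS subfamily, stood at 205 to 258 FPKM, well above Rgs7 and Rgs11, and Rgs6 at 10.3 to 11.8 FPKM. Gpr158, the closest relative of Gpr179, was at 7.68 to 8.61 FPKM.

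Of 20 relatives listed, 18 were tested, and 0 rose and 0 fell, with a median log2 change of 0.010. Gnai1, an inhibitory alpha subunit, was at 14.9, 14.6 and 15.8 FPKM in triple-deficient libraries, against 13.5, 14.0 and 12.6 FPKM in controls, groups that did not overlap (log2 change 0.17, limma adjusted p = 0.866). Gpsm2 and Gpsm3, which carry GoLoco motifs like Pcp2, had log2 changes of 0.15 and -0.18 (limma adjusted p = 0.936 and 0.943). Gpsm2 was the other relative whose groups did not overlap, at 7.27 to 7.53 FPKM in triple-deficient and 6.29 to 7.04 FPKM in control libraries. These 3 of 18 relatives had an unadjusted p below 0.05, against 5.09% of all genes tested, and 2 of 18 did not overlap with higher triple-deficient values, against 4.86%.

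**Figure D3:**
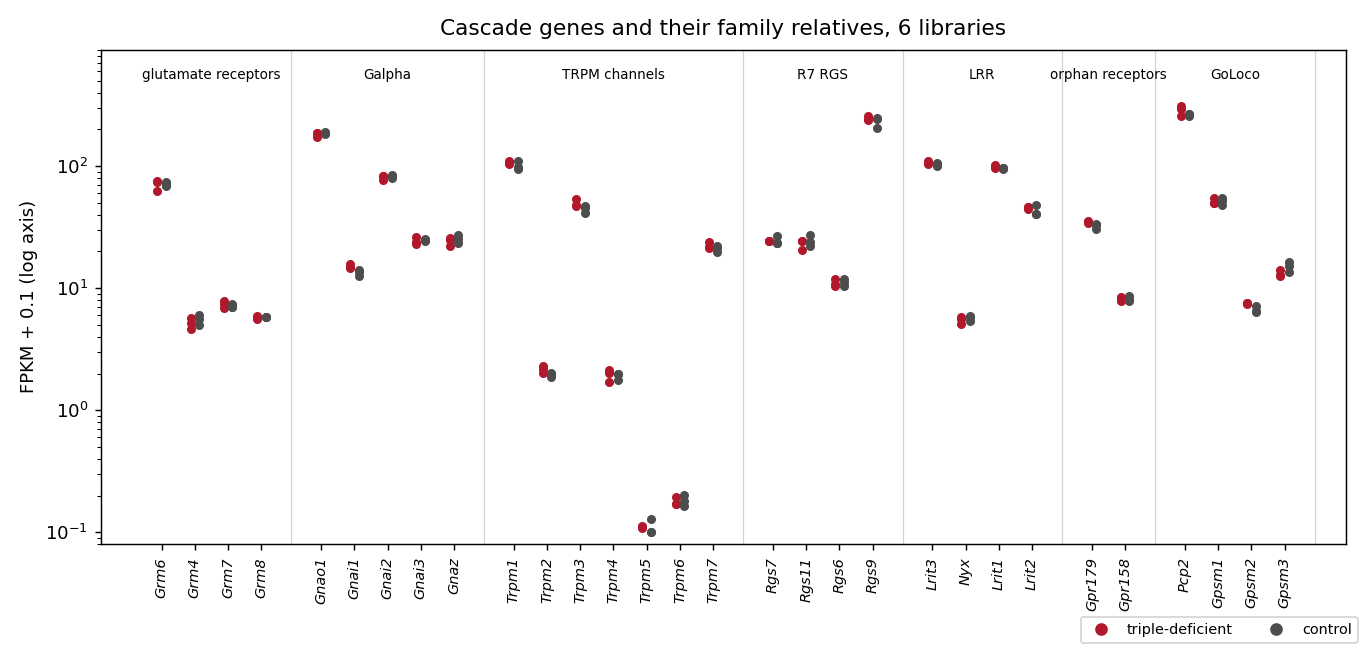
FPKM + 0.1 on a log axis for the cascade genes and their family relatives, 1 point per library, triple-deficient in red to the left and control in grey to the right of each gene. Grm6, Gnao1, Trpm1, Lrit3, Gpr179 and Pcp2 are each the highest by mean of the genes shown in their group (Lrit3 and Lrit1 overlap in range). Rgs9 at 205 to 258 FPKM exceeds Rgs7 and Rgs11.

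Partners of the cascade showed a similar picture. Gnb3, the beta subunit that ON-bipolar cells share with cones, stood at 1046 ± 41.0 FPKM in triple-deficient and 1054 ± 24.3 FPKM in control retinas, and Gng13, the gamma subunit of ON-bipolar Go, at 126 ± 6.34 and 121 ± 6.86 FPKM (SD, n = 3 each). Gnb5, the obligate partner of RGS7 and RGS11, was at 157 ± 4.98 FPKM in triple-deficient and 163 ± 8.31 FPKM in control retinas (SD, n = 3 each). Of 7 partners, Rgs7bp, Rgs9bp, Rgs20 and Ric8b among them, 0 rose and 0 fell, with log2 changes from -0.051 to 0.065 and a median of 0.0015.

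On the photoreceptor side of the synapse 0 of 10 genes rose and 0 fell. Elfn1 and Elfn2 encode adhesion proteins that bind mGluR6 across the cleft. Elfn2 was at 33.8, 31.0 and 27.9 FPKM in triple-deficient libraries, against 36.8, 36.2 and 33.5 FPKM in controls. The groups overlapped by a single value, control 3 lying just below triple-deficient 1. Its log2 change was -0.20 with an interval from -0.36 to -0.030 (unadjusted p = 0.0261, limma adjusted p = 0.893). Elfn1 was at 50.1, 50.7 and 42.6 FPKM in triple-deficient libraries, against 57.4, 46.8 and 54.3 FPKM in controls, and also overlapped (log2 change -0.14). Cacna1f, the calcium channel of the photoreceptor terminal, was at 72.1 ± 0.643 FPKM in triple-deficient and 69.2 ± 6.12 FPKM in control retinas, and Slc17a7, which loads glutamate into vesicles, at 401 ± 43.5 and 407 ± 15.0 FPKM (SD, n = 3 each). Lrit1 was at 96.1 to 102 FPKM in triple-deficient and 95.1 to 96.1 FPKM in control libraries, groups that met at the printed digits without overlapping. Its log2 change was 0.045 (limma adjusted p = 0.958). It was the 1 of these 10 genes without overlap and with higher triple-deficient values, against 4.86% of all genes tested.

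In retina as a bulk tissue, fewer cells of a type and less RNA per cell cannot be told apart, so markers of bipolar cells were set beside the cascade. Isl1, a factor of ON-bipolar and other inner retinal neurons, was at 85.9 ± 3.12 FPKM in triple-deficient and 86.4 ± 1.78 FPKM in control retinas (SD, n = 3 each). Prkca, the kinase that marks rod bipolar cells, was at 59.6, 58.6 and 60.1 FPKM in triple-deficient libraries, against 52.4, 58.9 and 55.8 FPKM in controls, with a log2 change of 0.094 (limma adjusted p = 0.946). Median log2 changes were 0.006 for 6 general bipolar markers, -0.011 for 5 rod bipolar markers, 0.059 for 10 markers of ON cone bipolar cells and -0.038 for 8 markers of OFF cone bipolar cells, and 0 genes of these lists rose or fell. Fezf2, a factor of OFF cone bipolar cells, had the smallest p of these lists, at 6.69, 7.97 and 6.77 FPKM in triple-deficient libraries, against 8.81, 8.51 and 8.40 FPKM in controls (unadjusted p = 0.0115, limma adjusted p = 0.836). It was the 1 of 8 OFF markers without overlap and with lower triple-deficient values, against 5.64% of all genes tested. Of the 10 ON cone bipolar markers, 2 (Sox6 and Slitrk5) did not overlap with higher triple-deficient values, against 4.86%. Among the general and rod bipolar markers 0 were without overlap. Bhlhe23, a factor of rod bipolar cells, was at 15.3 ± 0.947 FPKM in triple-deficient and 16.9 ± 0.747 FPKM in control retinas (SD, n = 3 each). Whether the ON and OFF lists differ from each other was not tested.

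Lists for other retinal neurons and for Müller glia also held 0 genes that rose or fell. The median log2 change was -0.033 for 6 amacrine, -0.042 for 6 ganglion, -0.036 for 4 horizontal and 0.006 for 6 Müller glial markers. Slc32a1, the vesicular transporter of GABA and glycine in amacrine cells, was at 38.0, 34.8 and 29.1 FPKM in triple-deficient libraries, against 39.5, 37.7 and 38.6 FPKM in controls, with triple-deficient 3 lowest as for Gnao1 (limma adjusted p = 0.943). Apoe, abundant in Müller glia, had the smallest p of these lists, with 499 ± 55.9 FPKM in triple-deficient and 599 ± 30.5 FPKM in control retinas (SD, n = 3 each; limma unadjusted p = 0.0140, adjusted p = 0.853). It was the 1 of 6 Müller glial markers without overlap and with lower triple-deficient values, against 5.64% of all genes tested. With higher values, 1 of 6 ganglion markers (Slc17a6) and 1 of 4 horizontal markers (Onecut2) did not overlap, against 4.86%.

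**Figure D4:**
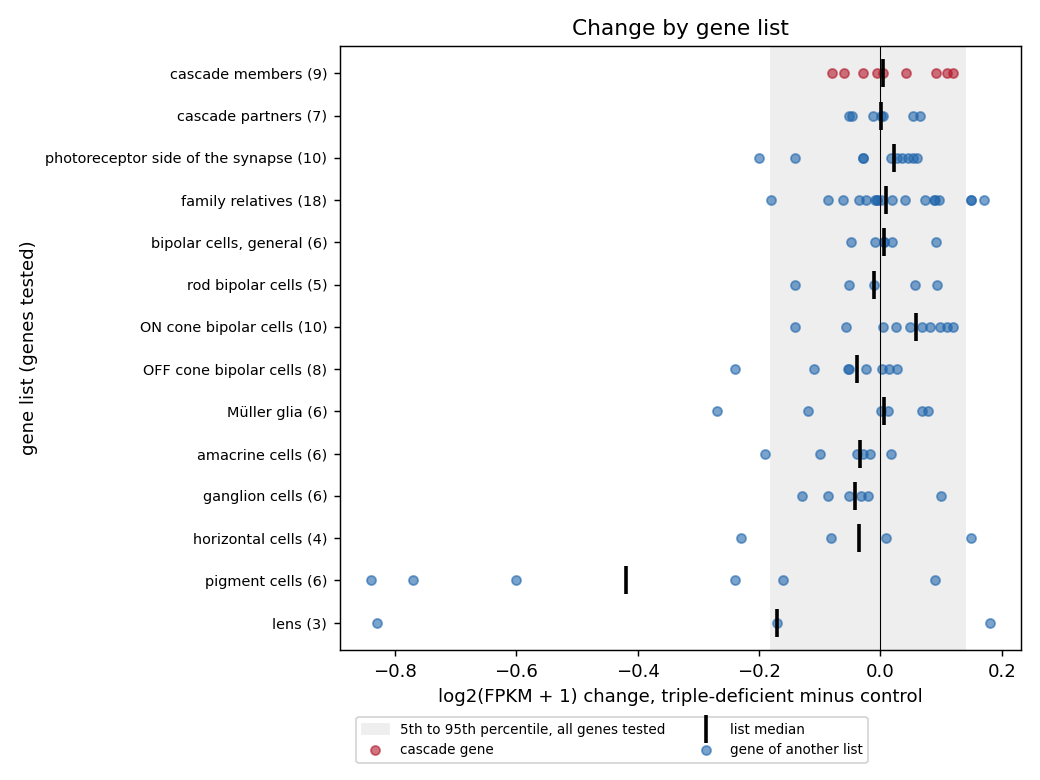
Log2 change of FPKM + 1 for each gene (triple-deficient minus control) by gene list, with the median of each list as a black bar and the 5th to 95th percentile of all genes tested (-0.18 to 0.14) in grey. All 9 cascade genes lie inside the grey band, while pigment cell markers have a median of -0.42.

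Trpm1 is also made by pigment cells, where it was first found as melastatin. The 10 pigment cell markers summed to 14.5, 16.1 and 21.8 FPKM in triple-deficient libraries, against 33.2, 30.5 and 22.0 FPKM in controls. All triple-deficient sums were lower than all control sums, though triple-deficient 3 and control 3 nearly met. The largest part of each sum was Ttr, at 7.42, 8.37 and 10.6 FPKM in triple-deficient libraries, against 18.0, 17.4 and 12.1 FPKM in controls. The sums were not compared without Ttr. Of the 10, 6 were tested, and 0 rose and 0 fell, with a median log2 change of -0.42. An unadjusted limma p below 0.05 was seen in 3 of the 6, against 5.09% of all genes tested. In 4 of the 6 the groups did not overlap with triple-deficient values lower, against 5.64% of all genes tested. Ttr, a carrier of thyroxine and of the retinol-binding protein, was at 8.81 ± 1.66 FPKM in triple-deficient and 15.8 ± 3.26 FPKM in control retinas (SD, n = 3 each; limma adjusted p = 0.508). Tyrp1 and Pmel of the melanosome were at 1.95 ± 0.399 and 1.61 ± 0.173 FPKM in triple-deficient retinas, against 3.46 ± 0.333 and 3.84 ± 1.42 FPKM in controls (SD, n = 3 each; limma adjusted p = 0.472 and 0.651). Rpe65 overlapped between the groups (log2 change -0.16, limma adjusted p = 0.965). It was at 1.52, 1.63 and 3.81 FPKM in triple-deficient libraries, against 3.05, 2.80 and 1.91 FPKM in controls. The 1 tested marker with a positive log2 change was Mitf, at 0.090 (limma adjusted p = 0.961). Trpm1, at 94.1 FPKM or more in every library, was highest in triple-deficient 1 and control 2 and lowest in control 3, and its groups overlapped. The pigment markers Best1, Slc45a2, Mlana and Lrat were below the filter, with Mlana listed at 0 in triple-deficient 3. What part pigment cells have in the Trpm1 value was not tested.

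**Figure D5:**
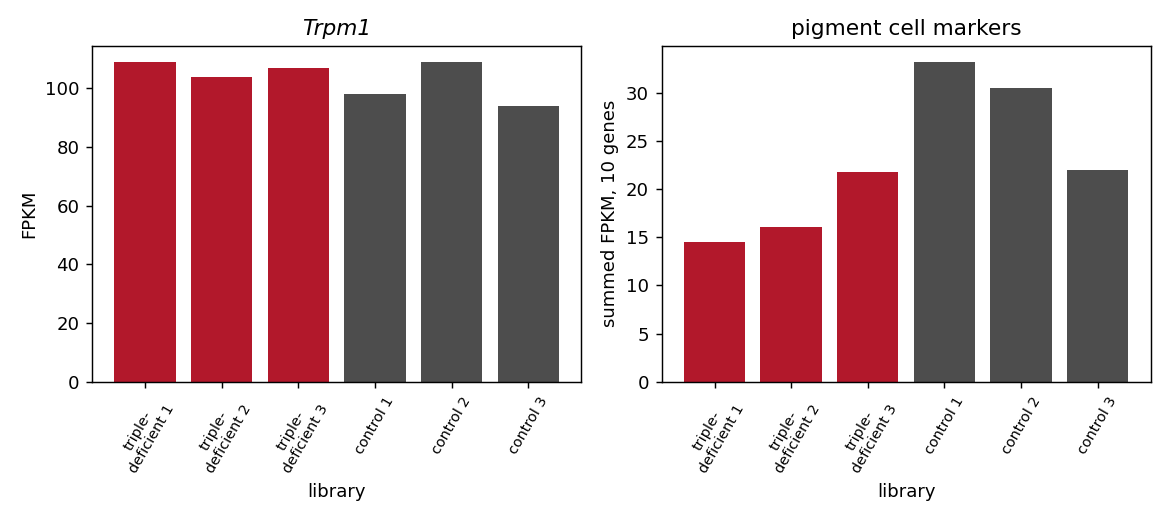
FPKM of Trpm1 (left) and summed FPKM of 10 pigment cell markers (right) in each library, triple-deficient in red and control in grey, with axes from 0. Trpm1 lies between 94.1 and 109 FPKM throughout, and the pigment sum is 14.5 to 21.8 FPKM in triple-deficient and 22.0 to 33.2 FPKM in control libraries. Ttr is the largest part of each sum.

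Across libraries the 9 genes deviated little and not always together. Their mean deviation from each gene's own average, on the log2 scale, was 0.060, 0.023 and -0.051 in triple-deficient libraries, against -0.053, 0.047 and -0.026 in controls, so libraries of both groups lay above and below 0. Single genes departed from this mean profile by a root mean square of 0.0396 (Gnao1) to 0.0921 (Rgs11), beside a median of 0.085 over 10186 other genes averaging 5 FPKM or more, and each cascade gene is itself part of the profile. The 5 genes closest to the profile over the 6 libraries were Cyfip2, Aldh9a1, Tmbim4, Fads1 and Lamc1, which departed from it by 0.0132 to 0.0159. With 6 libraries and that many genes this is a description of likeness only.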

How the data were processed

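Libraries were prepared with a stranded TruSeq kit for mRNA, per the labels' protocols. The deposited values are FPKM, 1 table per library, and per the submitters' processing notes they were made on build mm10 with Cufflinks 2.2.1, Cuffdiff, TopHat2 2.1.1 and Bowtie2 2.3.5.1. Settings, annotation and scaling: not given in the sources used here.

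FPKM values were used without rescaling. Depth was estimated from values below 0.3 FPKM, which rise in steps of 1 fragment: 61.1% to 64.1% of their ratios to control 1 matched a ratio of integers no larger than 6 (tolerance 0.005 in log2). Fragment numbers were estimated through 383 genes with a single GENCODE M21 transcript, and no counts were rebuilt.

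The groups were compared by limma 3.58.1 (R 4.3.3) with its trend option on log2(FPKM + 1). The fit covered 14325 genes averaging 0.5 FPKM or more, all 9 cascade genes among them, in two-sided tests, with Benjamini-Hochberg adjustment across all 14325 and a call at 0.05. The log2(FPKM + 1) scale understates changes of low genes. The script was tested on simulated data with independent noise and without a GC trend, and its recovery of small changes is not given here. Ratios were compared by an exact permutation test of their log2 values.

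The 9 genes and all lists were chosen with earlier results of these data known. Genes named are the 9, the targeted genes, list members with the smallest p, and the 5 closest in profile; for the others named as relatives, partners or markers the values were known at the choice. Coordinates and promoter windows come from RefSeq for GRCm38.p6, and overlapping genes and GC content (known for 99.2% of genes tested) from GENCODE M21. Alternatives changed the pseudocount, filter, scaling, shrinkage, weights, covariates, GC trend, replicate number as a block, and the libraries used. The values of 1 gene of the general bipolar list are not reported here.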

Additional observations from a re-analysis of the deposited data

How the results depend on the processing

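No cascade gene passed in any of 19 alternatives, where the smallest adjusted p was 0.401, for Pcp2. The smallest unadjusted p was 0.00518 for Pcp2, 0.0226 for Gpr179 and 0.0252 for Trpm1. With the GC trend removed, the log2 change of Rgs7 was -0.057, against -0.005 in the main fit. Log2 changes kept their sign over all 19 but varied in size, from 0.046 (without control 3) to 0.15 (without control 2) for Trpm1, from 0.065 (without control 1) to 0.14 for Gpr179, from 0.014 (without triple-deficient 1) to 0.065 (without triple-deficient 2) for Lrit3, from 0.068 (without triple-deficient 2) to 0.19 (without triple-deficient 3) for Pcp2 and from -0.099 (without triple-deficient 1) to -0.012 (without triple-deficient 2) for Nyx. Signs near 0 turned, without a call: Gnao1 to 0.0003 with array quality weights, Rgs7 to 0.006 with sex as a covariate, and with 1 library left out Grm6 to between -0.044 and 0.089, Gnao1 to between -0.053 and 0.010, Rgs7 to between -0.035 and 0.054 and Rgs11 to between -0.14 and 0.0024.

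The median of the cascade ran from -0.020 to 0.054 with 1 library left out. The number of genes called over all genes was 7 with no filter, 2 with robust shrinkage and 3 to 11 with 1 library left out (8 without control 3, and 11 without triple-deficient 1 or triple-deficient 3). With 1 library left out the log2 difference ran from -0.0042 to 0.12 for Rgs7 to Rgs11, from -0.081 to 0.0001 for Gnao1 to Grm6, from -0.0018 to 0.16 for Trpm1 to Grm6, from 0.032 (without triple-deficient 3) to 0.15 for Gpr179 to Grm6 and from -0.16 (without control 1) to -0.061 (without control 3) for Nyx to Lrit3. The cause of these turns was not tested. With no filter, the other lists again held 0 calls.

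The replicate number as a block gave 4 genes over all and 0 of the cascade, with and without removal of the GC trend. Deviations of same-numbered libraries correlated at 0.02, 0.11 and 0.07, and not every library matched its own number best, and the sources used here do not tie a number to a litter, so the numbers were not taken as pairs, and the block changed no call of the cascade. Nyx had the fewest estimated fragments of the cascade (514 to 807), yet its interval (-0.22 to 0.10) was narrower than that of Rgs11 (-0.28 to 0.13). How far depth limits genes of low level was not tested.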
